A study of Mus musculus with 16 samples.

Results

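The 9 genes described here store, import, export and sense iron or degrade heme: Fth1, Ftl1, Tfrc, Slc11a2, Slc40a1, Cp, Hmox1, Ireb2 and Aco1. They were chosen by name from a table of 54532 gene entries, each matched 1 entry, and all 9 were among the 17736 genes that passed the filter on low counts. RNA was sequenced from brain tissue of female mice 9 months old, in 4 groups of 4 libraries that combine both tau states (Tau- and Tau+) with both Ch25h genotypes (+/+ and -/-). The gene Ch25h encodes the enzyme that makes 25-hydroxycholesterol, an oxysterol, and -/- marks mice without the gene. Tau+ was taken to mean that the mouse carries a tau transgene; the labels name neither that transgene nor its promoter, and they do not say whether Cre or any other allele was present. The labels give frontal cortex as the tissue, whereas the design text names the hippocampus. Nothing in the labels says how the 4 libraries of a group relate to animals beyond a title for each, so p-values measure the spread between these samples.

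Cells take up iron that is bound to transferrin through the transferrin receptor, move it out of endosomes through a divalent metal transporter, keep the surplus inside ferritin shells, and release it through ferroportin with the help of a ferroxidase. A pair of iron regulatory proteins bind a hairpin in the messenger RNA, the iron-responsive element, when iron is scarce. Binding in a 5′ UTR blocks translation and binding in the 3′ UTR of the transferrin receptor messenger protects it from decay. In the brain, microglia and oligodendrocytes hold much of the ferritin, and astrocytes carry ceruloplasmin.

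Hairpins of 1 form of the iron-responsive element were located in the annotated transcripts. They divide the 9 genes into messengers with and messengers without a hairpin of this form. The search asked for C, then 5 bases of stem, the loop CAGTGN, and 5 bases that pair with the stem, G with T pairs allowed, on the transcript strand. Each line gives 30 bases from GENCODE M21 transcripts, 5′ to 3′ and written as DNA, with the loop in capitals; positions are on GRCm38.
Fth1 5′ UTR, chr19:9982731-9982760, plus strand: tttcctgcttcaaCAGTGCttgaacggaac
Ftl1 5′ UTR, chr7:45459779-45459808, minus strand: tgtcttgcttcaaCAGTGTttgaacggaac
Slc40a1 5′ UTR, chr1:45925465-45925494, minus strand: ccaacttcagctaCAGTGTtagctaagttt
Tfrc 3′ UTR, chr16:32631218-32631247, plus strand: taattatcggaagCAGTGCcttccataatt
Tfrc 3′ UTR, chr16:32631597-32631626, plus strand: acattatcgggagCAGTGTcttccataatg
Tfrc 3′ UTR, chr16:32631662-32631691, plus strand: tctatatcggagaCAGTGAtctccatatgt
Tfrc 3′ UTR, chr16:32631709-32631738, plus strand: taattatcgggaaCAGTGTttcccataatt
Of the 9 genes, 4 held a hairpin: 1 in the 5′ UTR of Fth1, Ftl1 and Slc40a1, and 4 in the 3′ UTR of Tfrc. The search found none of this form in Slc11a2, Hmox1, Cp, Ireb2 or Aco1. Elements with another stem or loop were not searched for. Genes without a match may therefore hold an element, and Tfrc may hold more than these 4. Among 21877 protein-coding genes, 31 (0.142%) held such a hairpin in a 5′ UTR and 129 (0.59%) in a 3′ UTR, regions whose lengths differ between genes. A match describes letters, not protein binding, and the sequencing measured messenger levels, not translation.

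Library totals ran from 15530352 to 25602500 counts. Ch25h had 0 counts in all 8 Ch25h-/- libraries and 5 to 30 in the Ch25h+/+ libraries. Prnp, which was read as a check of tau status because its promoter drives some tau transgenes, lay at 708 to 839 CPM (counts scaled to the TMM-adjusted size of each library) in Tau- and at 1414 to 1935 CPM in Tau+ libraries. A ribosomal RNA entry, CT010467.1, separated the libraries: 7 of the 8 Ch25h-/- libraries held 2289 to 5684 CPM of total counts (called rRNA-rich), and the other 9 libraries held 111 to 475. The only Ch25h-/- library in the low class was Tau+ replicate 1, so library class and Ch25h genotype can hardly be told apart. Each Ch25h comparison was repeated with the class as a covariate. Class varied only within Ch25h-/- Tau+, so each such fit, also for Tau-, takes the class effect from that 1 library against its group. All 6 cortex markers were detected in every library (summed 629 to 851 CPM), while 5 of 6 hippocampus markers were (116 to 270) and all 5 striatum markers (123 to 261).

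Levels differed widely between the 9 genes. Per kilobase of the principal transcript, the mean over 16 libraries was 841 CPM for Fth1, the ferritin heavy chain that oxidises iron, and 127 for Ftl1, the light chain that helps the iron core form. Slc11a2, the divalent metal transporter, followed at 19.3 and Tfrc, the transferrin receptor, at 16.7. The iron regulatory protein genes Ireb2 and Aco1 stood at 10.1 and 8.34. Cp, the ferroxidase ceruloplasmin, reached 4.30, Slc40a1, the exporter ferroportin, 3.38 and Hmox1, the inducible heme oxygenase, 3.04 CPM per kilobase. The ranges over libraries overlapped between Slc11a2 and Tfrc, between Ireb2 and Aco1, and between neighbours among Cp, Slc40a1 and Hmox1. Over the 16 libraries the highest CPM was 3.19 times the lowest for Hmox1 and 2.50 times for Cp, against 1.29 times for Slc11a2 and 1.41 times for Fth1.

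**Figure D1:**
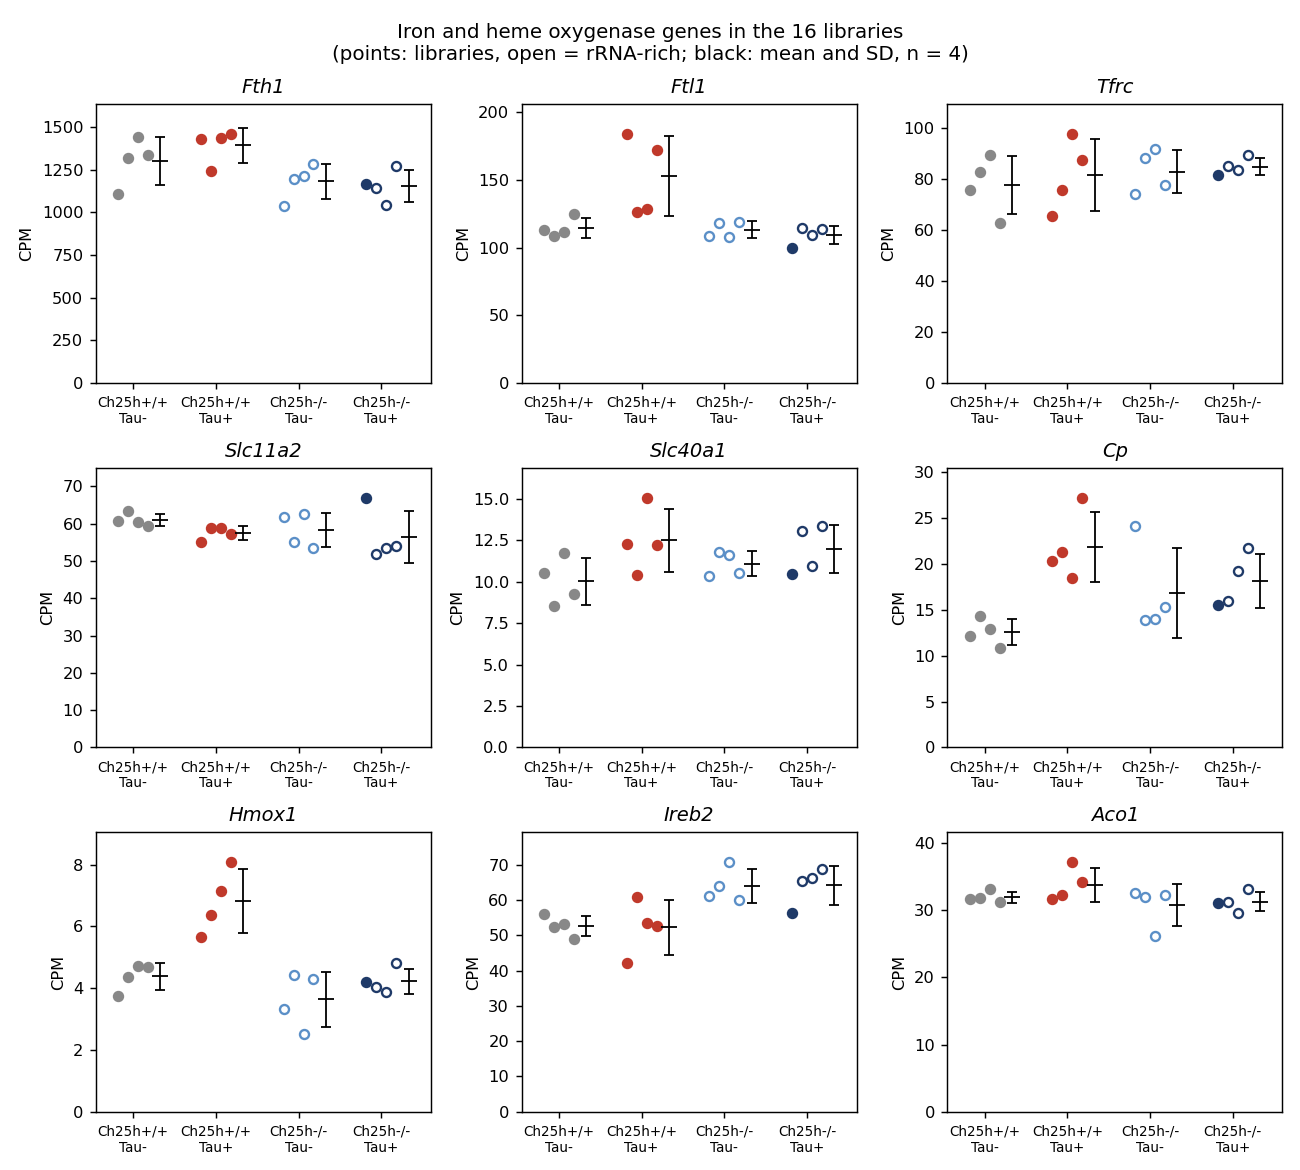
Level of each gene in CPM (vertical axes, from 0) in the 4 groups; each point is a library, open where the library was rRNA-rich, and the black mark is the mean with its SD (n = 4). Ftl1, Cp and Hmox1 were higher in every Ch25h+/+ Tau+ library than in any Ch25h+/+ Tau- library, while the groups overlapped for Tfrc and Aco1.

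With Ch25h present, 1 of the 9 genes, Cp, was higher in Tau+ than in Tau- mice in edgeR's quasi-likelihood test with Benjamini-Hochberg adjustment over all genes; 1.56% of the genes tested passed in either direction and 1.47% were higher. The 1.56% is 277 genes, which became 160 when Ch25h+/+ Tau+ replicate 4 was left out, 176 when Ch25h+/+ Tau- replicate 1 was, 424 with DESeq2 and 498 with limma-voom. Ftl1 and Hmox1 were also higher in every Tau+ library but did not pass, and 4 of the 9 had an unadjusted p under 0.05, beside 9.38% of all genes. Without Ch25h no gene of the 9 passed for tau status. With tau present, 2 of the 9, Ftl1 and Hmox1, were lower in Ch25h-/- than in Ch25h+/+ mice, beside 3.55% of all genes that passed in either direction and 2.4% that were lower. With library class as a covariate the log2 difference of Ftl1 went from -0.48 (SE 0.10) to -0.61 (SE 0.17) and that of Hmox1 from -0.69 (SE 0.17) to -0.70 (SE 0.29), and neither passed (edgeR adjusted p 0.504 and 0.976). With GC-corrected offsets they were -0.28 and -0.60, and neither passed (0.168 and 0.101). Leaving out 1 library moved the number of all genes that passed after Ch25h loss in Tau+ from 629 to as few as 108, when Ch25h+/+ Tau+ replicate 4 was left out, and to as many as 1691, when the rRNA-poor library Ch25h-/- Tau+ replicate 1 was, so the share of 3.55% is itself uncertain. The tau comparison in Ch25h+/+ and the Ch25h comparison in Tau+ share the Ch25h+/+ Tau+ libraries, so their values are given side by side and are not independent. Groups did not overlap for 4 of the 9 genes in the tau comparison of Ch25h+/+ mice (5.86% of all genes tested), for 0 of 9 in that of Ch25h-/- mice (2.14%), for 1 of 9 after Ch25h loss in Tau- (16.2%) and for 2 of 9 after Ch25h loss in Tau+ (10.2%).

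Cp (chr3:19957054-20009145), the ferroxidase, measured 12.1, 14.3, 12.9 and 10.9 CPM in the Ch25h+/+ Tau- libraries and 20.3, 21.3, 18.5 and 27.2 in Ch25h+/+ Tau+. The ranges were separate, and the group means were 12.5 ± 1.42 and 21.8 ± 3.76 CPM (SD, n = 4). The fitted log2 difference was 0.80 (SE 0.17), or 1.74-fold, with an adjusted p of 0.0172 in edgeR. Leaving out Ch25h+/+ Tau+ replicate 4 (adjusted p 0.0917), Ch25h+/+ Tau- replicate 1 (0.0621) or Ch25h+/+ Tau- replicate 4 (0.0783) ended this call, which held in the other 13 of 16 left-out fits.

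In Ch25h-/- mice Cp measured 24.2, 13.9, 14.0 and 15.3 CPM without tau and 15.5, 15.98, 19.2 and 21.7 with tau. These groups overlapped, because Tau- replicate 1 lay above all 4 Tau+ libraries. The log2 difference for tau was 0.10 (SE 0.17, edgeR adjusted p 0.999984). Cp after Ch25h loss differed by 0.42 (SE 0.17, adjusted p 0.169) in Tau- and by -0.27 (SE 0.17, adjusted p 0.341) in Tau+. With library class as a covariate these Ch25h differences were 0.14 (SE 0.32) and -0.49 (SE 0.27), and with GC-corrected offsets 0.24 and -0.44, none of them past the threshold. The interaction, which tests whether both tau effects differ, was -0.70 (SE 0.24) for Cp, with an unadjusted p of 0.00960 and an edgeR adjusted p of 0.725. Without Ch25h-/- Tau- replicate 1 the Cp difference for tau in Ch25h-/- was 0.32, that for Ch25h loss in Tau- 0.20 and the interaction -0.49, and none passed. Cp shares 108 exonic bases with Hps3 on the opposite strand, and the use of strand in counting is not given in the sources used here, so a few reads may belong to either.

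Slc40a1 (chr1:45908068-45926523), the only iron exporter known in mammals, measured 10.53, 8.53, 11.7 and 9.27 CPM in Ch25h+/+ Tau- and 12.3, 10.4, 15.1 and 12.2 in Ch25h+/+ Tau+. One Tau+ library lay inside the Tau- range, and the log2 difference of 0.32 (SE 0.13) did not pass in edgeR (adjusted p 0.416). The Ch25h-/- libraries held 10.4 to 11.8 CPM without tau and 10.48 to 13.4 with tau, inside the span of the Ch25h+/+ libraries.

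The ferritin genes differed from each other. Ftl1 (chr7:45457944-45459884) measured 113, 109, 111 and 125 CPM in Ch25h+/+ Tau- and 184, 126, 128 and 172 in Ch25h+/+ Tau+. The ranges of both groups were separate, but only just (125 and 126 CPM). Replicates 1 and 4 of Tau+ were the highest, and the group means were 114 ± 7.29 and 153 ± 29.7 CPM (SD, n = 4). The log2 difference was 0.42 (SE 0.10) and its edgeR adjusted p of 0.0512 missed the threshold of 0.05. It passed in 3 of the 11 other fits, with no filter (adjusted p 0.0120), DESeq2 (0.0119) and limma-voom (0.0247), and the largest adjusted p of the 11 was 0.209. With a library left out it passed in 2 of 16 fits, with adjusted p from 0.0132 (without Ch25h+/+ Tau+ replicate 2) to 0.255 (without Ch25h+/+ Tau+ replicate 4).

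Ftl1 in Ch25h-/- mice lay at 108, 118, 108 and 119 CPM without tau and at 99.9, 114, 109.6 and 114 with tau. All 4 Ch25h-/- Tau+ libraries were below all 4 Ch25h+/+ Tau+ libraries. The log2 difference between those groups was -0.48 (SE 0.10, edgeR adjusted p 0.0209), that is, 0.716 times the level. The difference for Ch25h loss in Tau- was -0.02 (SE 0.10) and that for tau in Ch25h-/- was -0.05 (SE 0.10), and neither passed (adjusted p 0.948 and 0.999984). The interaction was -0.47 (SE 0.15) with an unadjusted p of 0.00528 and an adjusted p of 0.559.

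The fall of Ftl1 after Ch25h loss in Tau+ was not called with library class as a covariate (log2 difference -0.61, SE 0.17, edgeR adjusted p 0.504), with GC-corrected offsets (-0.28, 0.168) or in a fit of only the 8 libraries compared (-0.48, 0.106). Among the rRNA-poor libraries the difference was -0.61 (SE 0.21), but Ch25h-/- had 1 library there, so that fit does not bear on the call. That library, Ch25h-/- Tau+ replicate 1, held 99.9 CPM of Ftl1, the lowest of the 16. Leaving out Ch25h+/+ Tau+ replicate 1 (adjusted p 0.0535) or replicate 4 (0.0833), or Ch25h-/- Tau+ replicate 3 (0.0628) or replicate 4 (0.0522), also ended the call.

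Fth1 (chr19:9980598-9985098) measured 1109, 1319, 1439.9 and 1337 CPM in Ch25h+/+ Tau-, and 1429, 1242, 1434 and 1461 in Ch25h+/+ Tau+. The Ch25h-/- libraries held 1039, 1193, 1215 and 1281 CPM without tau and 1164, 1139.8, 1042 and 1272 with tau. All groups overlapped their neighbours, though 3 of the 4 Ch25h+/+ Tau+ libraries were above every Ch25h-/- library. The log2 difference for Ch25h loss in Tau+ was -0.27 (SE 0.09, edgeR adjusted p 0.0969), and it passed in 1 of the 11 other fits, DESeq2 (adjusted p 0.0414), and in 1 of the 16 with a library left out, without Ch25h+/+ Tau+ replicate 2 (0.0436). The largest adjusted p was 0.988 among the former (rRNA-poor libraries, with 1 Ch25h-/- library) and 0.223 among the latter. Fth1 lies on the same chromosome as Ch25h, which starts at 34.5 Mb on chr19, against 9.98 Mb for Fth1. Ferritin genes have processed copies elsewhere in the genome. The copy Ftl1-ps1 held 24 to 90 counts a library beside 1762 to 3689 for Ftl1, and how reads shared with copies were counted is not given in the sources used here, so both ferritin levels are uncertain to that extent.

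The count ratio of heavy to light chain was 11.4 ± 1.41 (SD, n = 4) in Ch25h+/+ Tau- and 9.31 ± 1.51 in Ch25h+/+ Tau+. It was 10.4 ± 0.742 in Ch25h-/- Tau- and 10.6 ± 1.01 in Ch25h-/- Tau+. The 4 groups overlapped in this ratio, whose lowest value, 7.76, belonged to Ch25h+/+ Tau+ replicate 1.

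**Figure D2:**
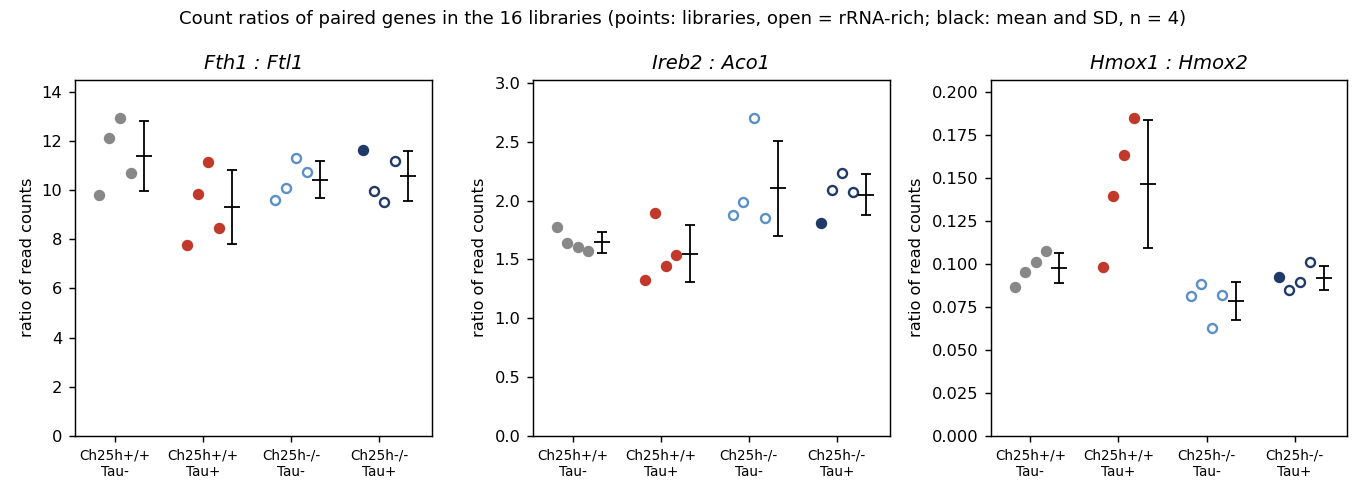
Ratios of read counts of paired genes (vertical axes, from 0) in the 4 groups; points are libraries, open where rRNA-rich, with the mean and SD (n = 4) in black. The Fth1 to Ftl1 ratios overlap between all groups, and the Ireb2 to Aco1 ratio has its 4 highest values in Ch25h-/- libraries, all of them rRNA-rich.

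Hmox1 (chr8:75093621-75100589), which opens the heme ring and releases iron, biliverdin and carbon monoxide, had the lowest level of the 9, at 42 to 173 counts a library. It measured 3.74, 4.38, 4.70 and 4.69 CPM in Ch25h+/+ Tau- and 5.67, 6.35, 7.16 and 8.08 in Ch25h+/+ Tau+. The Tau+ range lay wholly above the Tau- range, with means of 6.81 ± 1.04 and 4.38 ± 0.449 CPM (SD, n = 4). The log2 difference of 0.64 (SE 0.17) missed the threshold in edgeR (adjusted p 0.0776). It passed in 2 of the 11 other fits, DESeq2 (0.0194) and limma-voom (0.00557), with an adjusted p of up to 0.121 in the rest. With a library left out it passed in 2 of 16 fits, with adjusted p from 0.0366 (without Ch25h-/- Tau- replicate 3) to 0.332 (without Ch25h+/+ Tau+ replicate 4).

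In Ch25h-/- mice Hmox1 measured 3.31, 4.41, 2.53 and 4.29 CPM without tau and 4.19, 4.03, 3.86 and 4.81 with tau. Every Ch25h-/- Tau+ library was below every Ch25h+/+ Tau+ library. The log2 difference between them was -0.69 (SE 0.17, edgeR adjusted p 0.0366). The tau difference in Ch25h-/- was 0.21 (SE 0.18, adjusted p 0.999984), the difference for Ch25h loss in Tau- was -0.26 (SE 0.18, adjusted p 0.405), and the interaction was -0.43 (SE 0.25, adjusted p 0.999963). Hmox2, the constitutive heme oxygenase, held 40.4 to 57.9 CPM over all libraries, and the count ratio of Hmox1 to Hmox2 was 0.0976 ± 0.00874 in Ch25h+/+ Tau- and 0.146 ± 0.0372 in Ch25h+/+ Tau+ (SD, n = 4). Unlike the level of Hmox1, this ratio overlapped between those groups, since Tau+ replicate 1 (0.0979) lay inside the Tau- range of 0.0867 to 0.107. In Ch25h-/- mice the ratio of Hmox1 to Hmox2 was 0.0785 ± 0.0110 without tau and 0.0919 ± 0.00699 with tau (SD, n = 4).

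The lower Hmox1 after Ch25h loss in Tau+ was not called with library class as a covariate (-0.70, SE 0.29, edgeR adjusted p 0.976), in a fit of only the 8 libraries compared (-0.69, 0.0844) or with GC-corrected offsets (-0.60, 0.101). Among the rRNA-poor libraries, where 1 Ch25h-/- library leaves the call untested, the difference was -0.70 (SE 0.26). In the rRNA-poor Ch25h-/- Tau+ library Hmox1 measured 4.19 CPM, below the lowest Ch25h+/+ Tau+ library at 5.67. The call was also lost without Ch25h+/+ Tau+ replicate 3 (adjusted p 0.0536) or replicate 4 (0.123), or without Ch25h-/- Tau+ replicate 2 (0.0988), replicate 3 (0.113) or replicate 4 (0.0680).

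**Figure D3:**
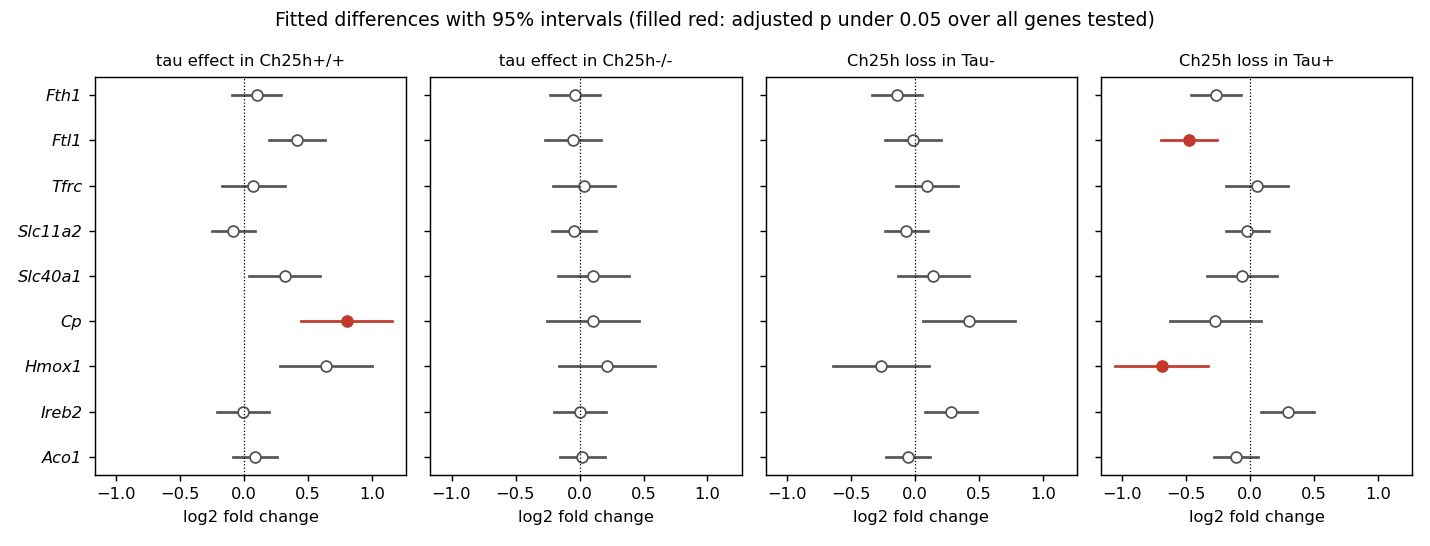
Fitted log2 fold changes of the 9 genes (horizontal axes) with 95% intervals in 4 comparisons; filled red points passed at an adjusted p under 0.05 over all genes tested. Cp (0.80) passed for tau in Ch25h+/+, and Ftl1 (-0.48) and Hmox1 (-0.69) passed for Ch25h loss in Tau+.

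Summed markers of microglia and astrocytes, like Ftl1, Hmox1 and Cp, were higher in every Ch25h+/+ Tau+ library than in any Ch25h+/+ Tau- library. All 8 microglia markers were above 0 in every library, and their sums were 306 to 329 CPM in Ch25h+/+ Tau-; the Ch25h+/+ Tau+ sums were 384 to 494, against 288 to 330 and 299 to 358 in Ch25h-/- Tau- and Tau+. Of these 8, 3 passed as higher for tau in Ch25h+/+ and 4 as lower for Ch25h loss in Tau+. All 6 astrocyte markers were above 0 in every library, with sums of 974 to 1015 CPM in Ch25h+/+ Tau-; the Ch25h+/+ Tau+ sums were 1262 to 2413. In the Ch25h-/- groups the astrocyte sums were 931 to 1236 and 1066 to 1259 CPM. For tau in Ch25h+/+, 1 of the 6 passed as higher, and 1 as lower for Ch25h loss in Tau+. In bulk tissue a different number of cells of a type and a different amount of RNA per cell cannot be told apart, and the part of these cells in the Ftl1, Hmox1 and Cp results was not tested.

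Markers of other cell types varied within the groups. Choroid plexus, an epithelium that secretes transferrin, had all 12 markers above 0 in every library with sums of 18.6 to 2893 CPM, and each group held both low and high libraries. With a choroid plexus score as a covariate Cp for tau in Ch25h+/+ kept its call (adjusted p 0.0168 in edgeR). The 8 oligodendrocyte markers summed to 2120 to 5108 CPM, the 4 globin markers of red blood cells to 2.12 to 36.8, and the 6 border macrophage markers to 5.79 to 14.1 in Ch25h+/+ mice without tau, against 11.6 to 20.6 with tau. No marker of these types passed in any comparison, nor did any endothelial or neuronal marker.

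**Figure D4:**
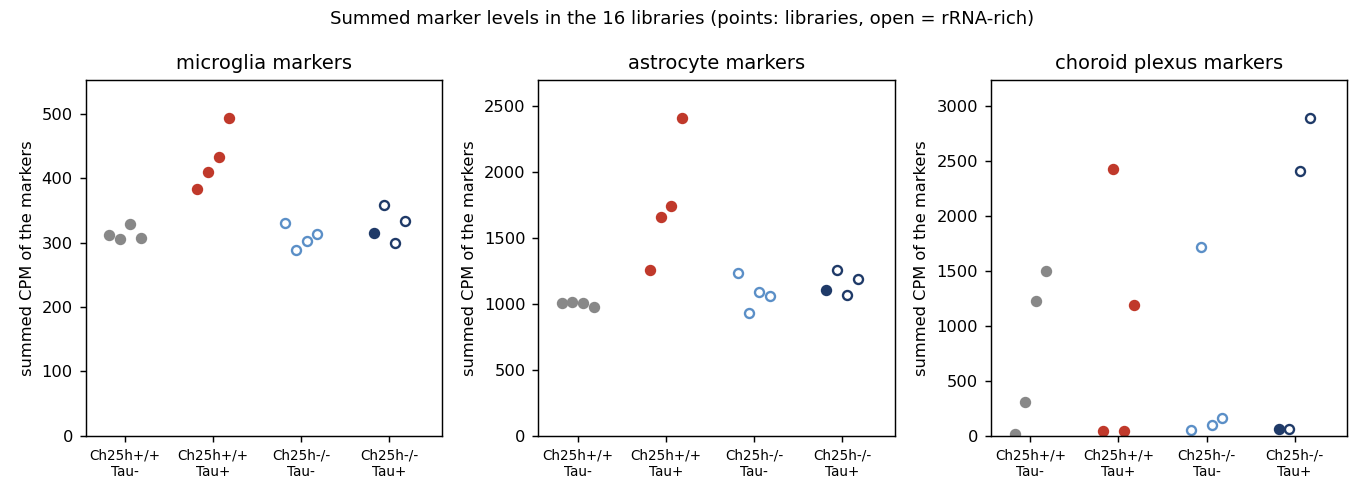
Summed CPM of marker genes (vertical axes, from 0) for microglia, astrocytes and choroid plexus in the 4 groups; each point is a library, open where rRNA-rich. Microglia sums in Ch25h+/+ Tau+ (384 to 494) lie above those of all other groups, and choroid plexus sums scatter within each group.

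Of the iron sensors, Ireb2 (chr9:54863789-54912530) encodes iron regulatory protein 2, which is degraded when iron is plentiful. It measured 56.1, 52.2, 53.1 and 49.0 CPM in Ch25h+/+ Tau- and 42.1, 61.0, 53.6 and 52.5 in Ch25h+/+ Tau+. The Ch25h-/- libraries were higher on average, at 61.3, 63.9, 70.7 and 59.9 CPM without tau and 56.3, 65.4, 66.4 and 68.8 with tau. Without tau the ranges were separate; with tau they overlapped through Ch25h+/+ Tau+ replicate 2 and the rRNA-poor Ch25h-/- library at 56.3 CPM.

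Ireb2 after Ch25h loss differed by 0.28 (SE 0.10, edgeR adjusted p 0.119) in Tau- and by 0.29 (SE 0.10, adjusted p 0.0895) in Tau+, so that neither passed. These differences were 0.03 and 0.10 with library class as a covariate and 0.04 and 0.08 with GC-corrected offsets. The class-adjusted value in Tau- rests on Ch25h-/- Tau+ replicate 1, a library of the other tau state. In Tau- Ireb2 passed in 2 of the 10 other fits, limma-voom (adjusted p 0.0367) and only the 8 libraries compared (0.0414), and in 1 of the 16 with a library left out, without Ch25h+/+ Tau+ replicate 1 (0.0347). In Tau+ Ireb2 passed in 1 of the 11 other fits, limma-voom (adjusted p 0.0335), and in 2 of the 16 with a library left out, without Ch25h+/+ Tau+ replicate 2 (0.0353) or Ch25h-/- Tau+ replicate 1 (0.0403). At an unadjusted p under 0.05, 2 of the 9 genes differed after Ch25h loss in Tau- (Ireb2 and Cp), beside 20.9% of all genes tested. In Tau+ 4 of 9 did (Fth1, Ftl1, Hmox1 and Ireb2), beside 23.9% of all genes.

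Aco1 (chr4:40143081-40198338) encodes iron regulatory protein 1, which serves as a cytosolic aconitase while it holds an iron-sulfur cluster. It measured 31.9 ± 0.840 CPM without tau and 33.8 ± 2.50 with tau in Ch25h+/+ mice, and 30.8 ± 3.11 and 31.3 ± 1.44 in Ch25h-/- mice (SD, n = 4). The count ratio of Ireb2 to Aco1 was 1.65 ± 0.0886, 1.55 ± 0.243, 2.11 ± 0.404 and 2.05 ± 0.177 in the same order. The rRNA-poor library Ch25h-/- Tau+ replicate 1 had 1.81, inside the Ch25h+/+ range of 1.33 to 1.89. Also inside it were the rRNA-rich Ch25h-/- Tau- replicates 1 (1.88) and 4 (1.85). Library class and genotype can hardly be told apart in this ratio.

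Neither uptake gene differed detectably between groups. Tfrc (chr16:32608920-32632794) measured 75.5, 82.6, 89.3 and 62.9 CPM in Ch25h+/+ Tau- and 65.6, 75.5, 97.7 and 87.4 in Ch25h+/+ Tau+. It lay at 74.2 to 91.6 CPM in Ch25h-/- Tau- and at 81.7 to 89.2 in Ch25h-/- Tau+. Slc11a2 (chr15:100387898-100425072) measured 60.7, 63.4, 60.3 and 59.4 CPM in Ch25h+/+ Tau- and 55.1, 58.9, 58.7 and 57.2 in Ch25h+/+ Tau+. These 2 ranges were separate by a narrow margin, but in the Ch25h-/- groups Slc11a2 spanned 53.5 to 62.6 CPM without tau and 51.9 to 66.9 with tau. Over Tfrc, Slc11a2 and Aco1 the log2 differences of all 5 comparisons lay between -0.11 and 0.09, their 95% intervals between -0.38 and 0.34, and their smallest edgeR adjusted p was 0.428.

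Across the 9 genes together, the median log2 difference was 0.10 for tau in Ch25h+/+ with 7 positive and 2 negative, and 0.02 for tau in Ch25h-/- with 6 positive and 3 negative. It was -0.02 for Ch25h loss in Tau- and -0.11 for Ch25h loss in Tau+, where 7 of 9 were negative. The medians of all genes tested were -0.01, 0.01, 0.01 and 0.00 in that order. No gene of the 9 passed for tau in Ch25h-/- (0.0395% of all genes passed), for Ch25h loss in Tau- (1.03%) or for the interaction (0.0338%). The 1.03% is 182 genes, a number that ran from 3 (without Ch25h+/+ Tau- replicate 1) to 1306 (without Ch25h+/+ Tau+ replicate 1) with a library left out. In these comparisons 0, 2 and 2 of the 9 had an unadjusted p under 0.05 in edgeR (3.68%, 20.9% and 4.13% of all genes). DESeq2 called 0, 0 and 0, and limma-voom 0, 1 and 0.

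Of 87 other genes of iron and heme handling, in 8 lists, 81 passed the filter. In Ch25h+/+ mice 1 of the 81 passed for tau (1.56% of all genes did), Nfe2l2, the transcription factor NRF2 that activates ferritin and heme oxygenase genes under oxidative stress. Nfe2l2 rose from 14.1 ± 0.464 to 20.4 ± 2.33 CPM (SD, n = 4), with a log2 difference of 0.53 (SE 0.10, edgeR adjusted p 0.00669) and no overlap between the groups. It passed in all 16 left-out fits and in all 11 other fits. In Ch25h-/- mice it measured 14.2 ± 1.63 CPM without tau and 16.2 ± 0.910 with tau. Its tau difference there was 0.19 (SE 0.10, edgeR adjusted p 0.999984). The interaction for Nfe2l2 was -0.34 (SE 0.14), with an unadjusted p of 0.0276 and an edgeR adjusted p of 0.999963. The median of the 13 genes in the list of NRF2 and BACH1 targets was 0.07 for tau in Ch25h+/+. The 13 include Nfe2l2 and its inhibitor Keap1, and the 1 that passed was Nfe2l2 itself.

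After Ch25h loss 2 of the 81 genes passed in Tau- (1.03% of all genes did) and 3 in Tau+ (3.55%), all lower. Keap1, which targets NRF2 for degradation, passed in both, with log2 differences of -0.30 (SE 0.07, edgeR adjusted p 0.0497) in Tau- and -0.29 (SE 0.07, adjusted p 0.0326) in Tau+. Its level was 80.2 ± 2.28 and 81.2 ± 5.90 CPM in Ch25h+/+ Tau- and Tau+, and 65.4 ± 2.98 and 66.5 ± 4.67 in Ch25h-/- (SD, n = 4). Glrx5, a mitochondrial glutaredoxin of iron-sulfur cluster assembly, fell by 0.59 on the log2 scale in Tau- (SE 0.12, adjusted p 0.0320), from 49.7 ± 3.001 to 32.96 ± 2.44 CPM.

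In Tau+ mice Zfp36, an RNA-binding protein that destabilises messengers including that of the transferrin receptor, fell by 0.93 on the log2 scale (SE 0.22, edgeR adjusted p 0.0325), from 7.39 ± 1.57 to 3.87 ± 0.603 CPM (SD, n = 4). Por, the reductase that supplies heme oxygenase with electrons, fell by 0.27 (SE 0.07, adjusted p 0.0447), from 89.4 ± 6.51 to 74.3 ± 3.25 CPM. With library class as a covariate none of these 5 results passed, and the log2 differences became -0.16 and -0.19 for Keap1 in Tau- and Tau+, -0.23 for Glrx5, -0.77 for Zfp36 and -0.18 for Por. With GC-corrected offsets they were -0.11 and -0.10 for Keap1, -0.53 for Glrx5, -0.82 for Zfp36 and -0.07 for Por, and none passed. Of the other fits, those 2 included, Keap1 passed in 6 of 10 in Tau- and 7 of 11 in Tau+, Glrx5 in 8 of 10, Zfp36 in 7 of 11 and Por in 4 of 11. Por was also lost with no filter (adjusted p 0.0689), 1 surrogate variable (0.0564), the choroid plexus score (0.0572) and only the 8 libraries compared (0.141), and that last fit also ended the calls of Zfp36 (0.0527) and of Keap1 in Tau+ (0.136). Keap1 in Tau- was lost with no filter (0.0541) and with a mean of at least 50 counts (0.0508). With a library left out, Keap1 passed in 2 of 16 fits in Tau- and 11 in Tau+, Glrx5 in 8, Zfp36 in 12 and Por in 8. The weakest were Keap1 in Tau- without Ch25h-/- Tau- replicate 3 (edgeR adjusted p 0.149), Keap1 in Tau+ without Ch25h-/- Tau+ replicate 3 (0.109), Glrx5 without Ch25h-/- Tau- replicate 3 (0.135), Zfp36 without Ch25h+/+ Tau+ replicate 4 (0.113) and Por without Ch25h-/- Tau+ replicate 4 (0.121). Keap1 shares 510 exonic bases with the antisense gene Gm16754 and Zfp36 shares 125 with Gm44710, so their reads may be mixed where strand was not used.

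The other lists had no member past the threshold for tau in Ch25h+/+; among them the gene of smallest p was Cybrd1 for iron uptake, Pcbp2 for iron storage, Bmp6 for iron export, Zfp36 for iron sensing, Cd163 for heme breakdown and uptake and Slc25a37 for mitochondrial iron. In Ch25h-/- mice these were Trf, Pcbp2, Hfe, Zfp36, Por, Tmem14c and Glrx5, with Nfe2l2 for the NRF2 list. Where no member passed after Ch25h loss they were Trf, Pcbp1, Heph, Cul1, Por and Tmem14c in Tau-, and Trf, Pcbp1, Bmp6 and Glrx5 in Tau+. For the interaction they were Cybrd1, Pcbp1, Heph, Zfp36, Cd163, Hscb and Nfe2l2. The list medians for tau in Ch25h+/+ ran from -0.05 for 15 mitochondrial iron genes to 0.40 for 7 iron export genes, all 7 positive and none past the threshold.

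Trf, the transferrin that Tfrc binds, averaged 6.79 ± 1.73 CPM without tau and 9.54 ± 2.21 with tau in Ch25h+/+ mice, and 11.05 ± 2.49 and 15.9 ± 5.41 in Ch25h-/- mice (SD, n = 4). It shares 63.5% of its exonic bases with Gm20425 on the same strand, and reads that fit both may not have been counted, so the level of Trf is uncertain. Hamp, the hormone hepcidin that closes ferroportin, held at most 1 count in any library and was not tested. Ftmt, Hephl1, Hp, Lcn2 and Tmprss6 also failed the filter on low counts and were not tested. Lcn2, the highest of these, held up to 38 counts. It lay at 0.0863 to 0.416 CPM in Ch25h+/+ Tau- and at 0.493 to 1.77 in Ch25h+/+ Tau+. In Ch25h-/- mice Lcn2 lay at 0.121 to 0.502 CPM without tau and at 0.0650 to 0.341 with tau.

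The genes most like each of the 9 were found by Pearson's r of log2 CPM over the 16 libraries among 13973 genes; the libraries share group, depth and library class, so these values only describe them. Fth1 was most like Slc48a1 (r 0.91), Olig1 (0.90) and Shb (0.87), and Ftl1 most like Glmp (0.90), Cd37 (0.89) and Ctsd (0.88). Hmox1 was most like Itgb5, Tap2 and Npc2 (each 0.92) and Cp most like Slfn5 (0.90), Zc3hav1 (0.89) and Slc12a7 (0.89). After group means were removed, these values in the same order were 0.86, 0.82 and 0.81 for Fth1 and 0.81, 0.67 and 0.76 for Ftl1. They were 0.71, 0.74 and 0.62 for Hmox1 and 0.75, 0.77 and 0.85 for Cp. Tfrc was most like Ugt8a (0.89), Ermn (0.87) and Lrrc75b (0.86), values that were 0.88, 0.87 and 0.93 after group means were removed. Ireb2 was most like Ankrd12 (0.97), Cep170 (0.97) and Lmbrd2 (0.96). For Aco1 the nearest were Glud1 (0.85), Arhgap30 (0.80) and Mtfr1l (0.79), for Slc11a2 Zswim8 (0.87), Atxn2l (0.87) and Mrps5 (0.83), and for Slc40a1 4931406C07Rik (0.80), Snapin (0.76) and Siglech (0.75).

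Between members, r over the 16 libraries was highest for Hmox1 with Aco1, at 0.76 and also 0.76 after group means were removed. Ftl1 with Hmox1 gave 0.70 over all libraries and 0.17 after group means were removed, and Fth1 with Ftl1 gave 0.62 and 0.32. The most negative over all libraries were Fth1 and Ftl1, each with Ireb2, both at -0.63, and after group means were removed these were -0.26 and -0.54. Ftl1 with Slc11a2 was the most negative after that removal, at -0.56, against -0.34 over all libraries.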

How the data were processed

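The authors deposited 1 table of read counts per gene for all 16 libraries, whole numbers with no normalization. Per the labels' protocols, total RNA came from PureLink columns and sequencing libraries from a SMARTER mRNA kit; per the submitters' processing notes, STAR 2.7 and the builds GRCm38 and mm10 were used, and the counting program, annotation and use of strand are not given in the sources used here. The members, gene lists and tests were chosen with earlier results of these data known. Replicate numbers follow record order and carry no pairing. The table held 105 repeated symbols.

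Counts were filtered with filterByExpr and fitted with edgeR 4.0.16 in R 4.3.3 (limma 3.58.1): 1 quasi-likelihood fit of 16 libraries with a mean per group, TMM scaling, two-sided tests, and Benjamini-Hochberg adjustment over 17736 genes at 0.05. Standard errors were the fold change over the square root of F. CPM values used TMM-scaled sizes; log2 CPM had a pseudocount of 0.5. Depth was 15530352 to 25602500 counts, and precision beyond replicate spread is counting error only. In simulated counts for tau in Ch25h+/+ (17446 genes), 87% of changes of log2 size 1 and 98% of size 2 were recovered (100 genes each), with 10 false calls in all.

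Named genes were the 9 members, up to 4 passing genes of each list and comparison (the smallest p where none passed), the 3 genes most like each member, and Ch25h and Prnp; Hmox2, Trf, Hamp and the untested list genes were added as listed genes of interest after their values were seen. A gene that this rule names is not reported here. Alternatives were limma-voom (with quality weights), DESeq2 1.42.0, size factors by relative log expression, a stricter filter (mean count of 50 or more) or none, a surrogate variable from sva 3.50.0, covariates for library class (rRNA-rich at 1000 CPM or more) and choroid plexus score, GC-corrected offsets (loess, span 0.5), only the 8 libraries compared, and each library left out. Fits of only rRNA-poor or rRNA-rich libraries were chosen after seeing the data. Positions, hairpins and transcript lengths come from GENCODE M21 (GRCm38).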

Additional observations from a re-analysis of the deposited data

Results flagged for a closer look

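In 4 of 36 sets (9 genes in 4 groups) 1 library stood far from the other 3, by the gap to its nearest neighbour over the range of the group; chance gives about 1 in 20. Fth1 was lowest in Ch25h+/+ Tau+ replicate 2, at 1242 CPM. Slc11a2 was highest in Ch25h-/- Tau+ replicate 1, the rRNA-poor library, at 66.9 CPM. Cp was highest in Ch25h-/- Tau- replicate 1, at 24.2 CPM. Aco1 was lowest in Ch25h-/- Tau- replicate 3, at 26.2 CPM.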

How the results depend on the processing

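For tau in Ch25h+/+, where 1 of the 9 genes passed, 2 passed with no filter, 3 with DESeq2, 3 with limma-voom, and 0 to 2 with a library left out. For Ch25h loss in Tau-, where 0 passed, 1 passed with limma-voom, 1 in a fit of only the 8 libraries compared, and 0 to 1 with a library left out. For Ch25h loss in Tau+, where 2 passed, 3 passed with DESeq2, 3 with limma-voom, 0 with library class as a covariate, 0 with GC-corrected offsets, 0 in a fit of only the 8 libraries compared, and 0 to 4 with a library left out; 0 passed among rRNA-poor libraries, where the 1 Ch25h-/- library leaves the calls untested. For tau in Ch25h-/- and for the interaction the count was 0 in every fit run. The difference of Ftl1 for Ch25h loss in Tau-, -0.02 and never called, turned to 0.00501 with a mean of at least 50 counts, 0.0116 with limma-voom and 0.168 with GC-corrected offsets, and ran from -0.0450 to 0.0289 with a library left out. The cause was not tested. Of the 81 listed genes, 1 to 3 passed for tau in Ch25h+/+, 0 to 6 for Ch25h loss in Tau- and 0 to 10 for Ch25h loss in Tau+ over all fits. Among the 26 fold changes of the 9 genes that are not given one by one, 61 of 685 refitted values changed sign, in 16 of the 26. None of these passed. Over all genes tested, Ch25h loss in Tau+ gave 629 calls, 10 with library class as a covariate and 1494 with DESeq2; in Tau- it gave 182, 0 and 1124. With a library left out these numbers ran from 108 to 1691 in Tau+ and from 3 to 1306 in Tau-, and the 277 calls for tau in Ch25h+/+ from 160 to 299. No paired analysis was possible because the labels give no replicate numbers. Hmox1 had the fewest counts of the 9, at 42 to 173 a library.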
